A study of Mus musculus with 6 samples.

Results

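A set of 8 interferon response genes was followed across the cell types of the hypothalamus of 4 mice. The 8 members, Ifit1, Ifit3, Irf7, Isg15, Bst2, Ifi27, Ifitm3 and Irf1, were found by symbol among the 16411 genes listed. All 8 had UMIs (unique molecular identifiers, that is, counted RNA molecules). The mice were ob/ob males, which lack leptin and become obese and diabetic, and were 11 weeks old. All were given the mutant growth factor FGF1 R50E into a cerebral ventricle at 3 µg, and the hypothalamus was dissociated on day 5 after that injection. All mice belonged to this 1 group, so no comparison between treatments was made, and mice 3, 4, 30 and 34 are its replicates. Each mouse was 1 library of the 10x Genomics Chromium 3' v2 kit, and 2 further labelled mice, 12 and 37, were not analysed here. The 20151 cells carried the authors' labels for 9 cell types. UMIs were summed for each mouse and type, and a level is given in CPM, the UMIs of a gene in every 1000000 UMIs of that sum.

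Interferons are secreted when cells sense viral or self nucleic acids. Type I interferons bind the receptor pair Ifnar1 and Ifnar2, interferon gamma binds Ifngr1 and Ifngr2, and the receptors signal through JAK kinases to transcription factors. Many genes that respond carry the interferon-stimulated response element (ISRE), the gamma-activated site (GAS) or both. Irf7 and Irf1 are transcription factors that extend the response. Ifit1 and Ifit3 encode proteins that bind foreign RNA or assist its binding. Isg15 encodes a ubiquitin-like modifier, Bst2 encodes tetherin, which holds budding virus at the cell surface, and Ifitm3 encodes a membrane protein that hinders viral entry. Ifi27 encodes a small membrane protein that is induced by interferon in many tissues.

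In GRCm38 coordinates of GENCODE vM21, Ifit3 lies at chr19:34583531-34588731 and Ifit1 at chr19:34640871-34650009, both on the plus strand. Ifitm3 at chr7:141009586-141010770 and Irf7 at chr7:141262706-141266481 are both on the minus strand. Isg15 lies at chr4:156199424-156200818 on the minus strand, Bst2 at chr8:71534255-71537456 on the minus strand, Ifi27 at chr12:103434211-103440239 on the plus strand and Irf1 at chr11:53770014-53778374 on the plus strand. Reads of a 3' kit come from the transcript end, so the last 400 bases of each member's coding transcripts were cut into words of 50 bases and looked up in all other transcripts. Ifit3 shared 19.1% of its words with Ifit3b, Ifitm3 shared 12.3% with Ifitm1 and Gm7676, and Isg15 shared 0.855% with AC151275.1. Levels of the first 2 are uncertain by such reads, and how the authors' counting treated them was not examined. The other 5 members shared none.

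RefSeq promoter windows (GRCm38.p6, 250 bases before to 50 after the gene start) were given for 7 members, and were searched on both strands for the ISRE core GAAANNGAA and for the GAS core TTCNNNGAA, which reads the same on both strands. The stretches before the start are shown for the members with a match there, whose levels are compared across types and mice below. Capitals mark the matches, and the letters run 5′ to 3′ on the strand of the gene.
Ifit1, chr19:34640765-34640828, plus strand: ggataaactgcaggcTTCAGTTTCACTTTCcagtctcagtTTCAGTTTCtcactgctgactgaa
Ifit3, chr19:34583359-34583450, plus strand: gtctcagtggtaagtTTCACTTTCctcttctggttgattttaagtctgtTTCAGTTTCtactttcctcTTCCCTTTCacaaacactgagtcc
Isg15, chr4:156200861-156200911, minus strand: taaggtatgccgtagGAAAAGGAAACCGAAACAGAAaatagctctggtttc
Bst2, chr8:71537573-71537623, minus strand: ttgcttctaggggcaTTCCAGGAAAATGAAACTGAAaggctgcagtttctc
Irf1, chr11:53769909-53769947, plus strand: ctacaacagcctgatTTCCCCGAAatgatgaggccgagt
Ifit1, Ifit3 and Isg15 held 3 matches to the ISRE core each, which overlap in Isg15 and in part in Ifit1. Bst2 held 2 overlapping ISRE matches that share 3 bases with a GAS match, and Irf1 held a GAS match and no ISRE match in this window. In Ifitm3, 2 ISRE matches and 1 GAS match lay within the 50 bases after the start. Of all 32851 promoter windows, 8.56% held the ISRE core, 8.30% held the GAS core and 1.07% held both. These are matches of letters, not measured binding sites, and the lack of a match in the Irf7 window says only that these letters were not in it.

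The labels of the cell types were compared with marker genes. In each type with 20 or more cells in every mouse, the summed level of its own markers was above that in any other such type and mouse, for example 6800 to 8350 CPM for the 6 ependymal markers in ependymal cells against at most 1442 CPM elsewhere. The closest were the astrocyte markers, at 14613 CPM or more in astrocytes and at up to 5867 CPM in tanycytes. The cells labelled endothelial also held the 5 mural markers, genes of pericytes and vascular smooth muscle, at 3246 to 3620 CPM, beside 6880 to 7524 CPM of endothelial markers, so that values for this type can include mural cells, whose part was not tested. Vascular leptomeningeal cells numbered 6, 12, 44 and 6 in mice 3, 4, 30 and 34, so their values are given without a test, and the orders of types below are over the other 8. Totals ran from 3299971 UMIs in 3005 cells of mouse 30 to 8856079 UMIs in 7386 cells of mouse 3, and of 19954 barcodes 194 were found in more than 1 mouse. Mouse 30 stood apart: over all cells, Cxcl10, which encodes a chemokine, was at 962 CPM in that mouse and at 4.40, 2.57 and 8.97 CPM in mice 3, 4 and 34. The Y-linked genes Ddx3y, Uty, Eif2s3y and Kdm5d summed to 93.9 CPM in mouse 30 against 227 to 229 CPM in mice 3, 4 and 34, and Xist had 0 UMIs in all 4. The results are therefore given for each mouse, and each test of the members with and without mouse 30.

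Irf7, the transcription factor that amplifies type I interferon production, was highest in endothelial cells among these 8 types in mice 3, 4 and 34. In endothelial cells it was at 51.4, 60.7, 56.9 and 78.5 CPM in mice 3, 4, 30 and 34. The 4 mice lay close together there, and mouse 30 was in their middle. In microglia, the resident macrophages of the brain, Irf7 was at 0, 0, 223 and 8.42 CPM in the same order, from 0, 0, 22 and 1 UMIs. Microglia of mouse 30 thus stood above every other type and mouse but 1, the vascular leptomeningeal cells of mouse 30, at 249.5 CPM. In ependymal cells it was at 6.47, 2.89, 73.8 and 12.0 CPM, and in tanycytes at 5.90, 5.67, 27.4 and 13.4 CPM. Over the 4 mice the mean was 61.9 ± 11.7 CPM (SD, n = 4) in endothelial cells and 57.9 ± 110.2 CPM in microglia, so these neighbours in the order did not differ beyond their spread. Astrocytes and the cells of the oligodendrocyte lineage had at most 10.0 CPM in any mouse.

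Irf1 is a transcription factor that responds to interferon gamma and to NF-kB. Ependymal cells, the ciliated lining of the ventricle, had 9.70, 11.5, 264 and 46.9 CPM in mice 3, 4, 30 and 34, and tanycytes, the elongated glia of the ventricular floor, had 8.36, 12.5, 93.7 and 30.8 CPM. Mouse 30 was highest in both and mouse 34 second. Microglia had 89.9, 0, 101 and 118 CPM, where mouse 4 with its 34 cells was the exception and mouse 30 did not stand out. Oligodendrocyte precursor cells lay within 20.6 and 29.7 CPM in all mice, at a mean of 24.2 ± 4.02 CPM (SD, n = 4), while oligodendrocytes, the myelinating cells they give rise to, had 0.431, 0.947, 10.3 and 2.17 CPM. The groups of these last 2 types did not overlap.

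Among the 8 types, Ifit1 was highest in endothelial cells in mice 3, 4 and 34, and in ependymal cells in mouse 30. Endothelial cells held 101, 52.0, 110.1 and 81.8 CPM in mice 3, 4, 30 and 34. Ependymal cells held 0, 8.66, 371 and 28.9 CPM, from 0, 3, 176 and 24 UMIs, and the 0 of mouse 3 allows up to 4.85 CPM. The value of mouse 30 was 12.9-fold above the next, that of mouse 34 (95% interval of counting error 8.37 to 20.6). In tanycytes it was at 40.3, 38.6, 229.6 and 54.3 CPM, with mouse 30 again above the rest. Microglia had no Ifit1 UMI in mice 3, 4 and 34, which allows up to 22.5, 67.0 and 25.3 CPM, and 18 UMIs or 182.5 CPM in mouse 30, at least 2.72-fold higher than the largest of these limits.

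Ifit3, whose protein is a partner of the Ifit1 protein, was highest in tanycytes among the 8 types in mice 3, 4 and 34. Tanycytes had 57.5, 80.5, 277 and 81.8 CPM in mice 3, 4, 30 and 34, and ependymal cells had 9.70, 14.4, 297 and 48.1 CPM. Astrocytes held a narrow range of 20.99 to 28.0 CPM, with mouse 30 at its top. Endothelial cells went the other way, with 37.7, 26.0, 11.4 and 47.4 CPM, where mouse 30 was lowest from 3 UMIs. It was there at 0.240 of the highest of the other mice (95% interval of counting error 0.0468 to 0.774), and this was the lowest such ratio of a member in endothelial cells.

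Isg15, whose product is attached to other proteins during an interferon response, set endothelial cells apart in mice 3, 4 and 34. They had 194, 126, 182 and 240.4 CPM in mice 3, 4, 30 and 34, a mean of 185 ± 47.2 CPM (SD, n = 4). Ependymal cells had 1.62, 0, 285 and 16.8 CPM, from 1, 0, 135 and 14 UMIs, and microglia had 14.99, 22.3, 345 and 25.3 CPM. In mice 3, 4 and 34 all sums of the other 7 types were at or below 33.1 CPM, the tanycytes of mouse 34, and none reached the lowest endothelial value. In mouse 30, microglia, ependymal cells and, at 182 CPM, tanycytes equalled or exceeded endothelial cells. Mouse 30 was 16.9-fold above mouse 34 in ependymal cells (95% interval of counting error 9.74 to 31.8).

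Bst2 and Ifitm3 encode the membrane proteins. Bst2 was at 133, 109, 219 and 148 CPM in tanycytes of mice 3, 4, 30 and 34 and at 154, 82.3, 148 and 213 CPM in endothelial cells, and the ranges of these types overlapped. In ependymal cells it was at 25.9, 26.0, 122 and 40.9 CPM. Ifitm3 was at 1288, 680.2, 1108 and 1383 CPM in endothelial cells and at 648, 375, 1839 and 886 CPM in ependymal cells. Mouse 30 was 2.07-fold above the next mouse in ependymal cells and below mice 3 and 34 in endothelial cells. In microglia, Ifitm3 was at 37.5, 67.0, 760.4 and 109.5 CPM, so that mouse 30 was 6.94-fold above the next (95% interval of counting error 3.82 to 13.6). Oligodendrocytes had 15.1, 18.0, 88.5 and 15.7 CPM, and there too mouse 30 was above the others.

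Ifi27 followed another order. Of the 8 types, it was highest in mice 3, 4 and 34 in committed oligodendrocyte precursors, the cells between precursors and oligodendrocytes. These held 508, 414, 339.8 and 529 CPM in mice 3, 4, 30 and 34. In tanycytes Ifi27 was at 449.8, 313, 589.9 and 411 CPM, so that tanycytes were highest of the 8 types in mouse 30. The ranges of committed precursors and tanycytes overlapped. Mouse 30 was lowest in astrocytes, at 146 CPM against 203 to 275 CPM, and lowest in committed precursors. It was highest in ependymal cells, at 456 CPM against 160.1, 66.4 and 212 CPM, 2.15-fold above the next mouse (95% interval of counting error 1.76 to 2.64). Over the 32 sums of the 8 types with 20 or more cells in every mouse, Pearson's r of log2 CPM with the other members lay between -0.03 (Bst2) and 0.41 (Ifit3), while the other 7 had r of 0.58 to 0.87 among themselves. These sums share mice, depth and cell type, so the coefficients are descriptions.

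**Figure D1:**
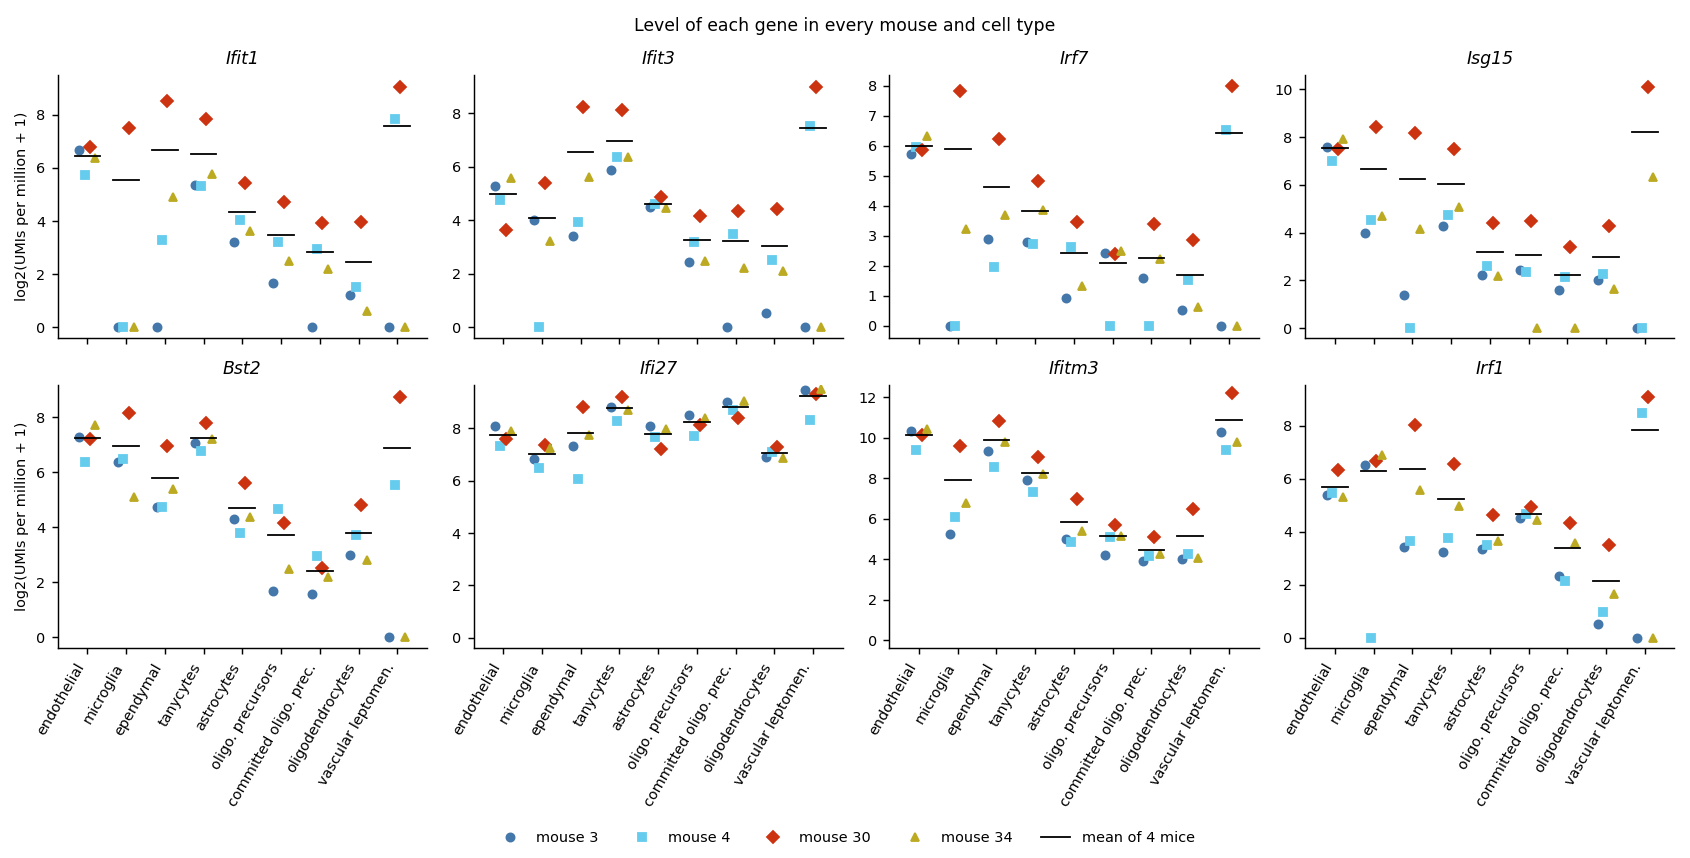
Level of each of the 8 genes as log2(CPM + 1) in every mouse and cell type, with 1 point per mouse and a line at the mean of the 4 mice. Mouse 30 (red diamonds) lies above the other mice in most types. In endothelial cells it lies within or close to their range, except above it for Irf1 and below it for Ifit3. Ifi27 spans a narrower range than the other genes.

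In vascular leptomeningeal cells, the fibroblast-like cells of the brain surface, mouse 30 supplied 44 of the cells. There Isg15 was at 1105 CPM, Ifitm3 at 4705 CPM, Irf1 at 547 CPM, Ifit1 at 535 CPM, Ifit3 at 511 CPM and Bst2 at 428 CPM. Each was the highest value of that gene in any type and mouse. The 6 to 12 cells of the other mice gave at most 15 UMIs of any 1 member.

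Taking the 8 types with 20 or more cells in all mice, members ordered by mean level gave 56 pairs of neighbouring types, and in 1 of them, endothelial cells above oligodendrocytes for Ifi27, the ranges of the 4 mice did not overlap. Ranges leave out that the types share mice, so overlap does not mean that the mice disagreed. Ependymal cells were above tanycytes for Ifitm3 and above astrocytes for Bst2 in 4 of 4 mice, with overlapping ranges. For Ifit1, ependymal cells were above tanycytes in 1 of 4 mice. Without mouse 30, 11 of the 56 pairs did not overlap. Endothelial cells then stood clear of the next type for Isg15 and Irf7, tanycytes stood clear of endothelial cells for Ifit3, and ependymal cells stood clear of tanycytes for Ifitm3.

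The next question was how often 1 mouse stood above the rest. A member was counted where a mouse was at least 2-fold above the highest of the other mice, among genes with at least 50 CPM in some mouse of that type, and a mouse with fewer than 3 UMIs was set to 3. Over the 8 types, 36 pairs of a member and a type were eligible. Mouse 30 was above the others in 19 of them, and mice 3, 4 and 34 in 0. Among all 32226 pairs of a gene and a type the shares were 1.33% for mouse 30, 1.52% for mouse 4, 0.0652% for mouse 3 and 0.0621% for mouse 34. Of the 19 pairs, 13 reached 50 CPM in mouse 30 alone, and so passed the minimum through the mouse that was counted, which makes these counts a description. With 50 CPM required in a mouse other than the one counted, a limit added after the data were seen, mouse 30 was above in 6 of 21 pairs of a member and a type, against 0.381% of all pairs. They were Ifi27 and Ifitm3 in ependymal cells, Ifit1 and Ifit3 in tanycytes and Bst2 and Ifitm3 in microglia. Mice 3, 4 and 34 were above in 0 of 36 pairs each, against 0.016%, 0.419% and 0.016% of all pairs. With the first limit mouse 4 exceeded the others about as often as mouse 30 over all genes, 490 against 428 pairs, but for no member, and 327 of its pairs were in microglia, of which it had 34 cells.

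By type, all 8 members were at least 2-fold higher in mouse 30 than in any other mouse in ependymal cells, against 3.42% of all eligible genes, and 6 of them reached 50 CPM in mouse 30 alone. In microglia 5 of 7 eligible members were (Ifit1, Irf7, Isg15, Bst2 and Ifitm3) against 1.57%, and in tanycytes 4 of 7 (Ifit1, Ifit3, Isg15 and Irf1) against 1.15%, and 3 of the former and 2 of the latter reached 50 CPM in mouse 30 alone. Ifitm3 was above in astrocytes, where 2 members were eligible (background 0.506%), and in oligodendrocytes, where 2 were eligible (0.797%), and in both it reached 50 CPM in mouse 30 alone. No member was in oligodendrocyte precursor cells (0 of 2, background 0.774%) or in committed precursors (0 of 1, background 0.659%). In endothelial cells 0 of 7 eligible members were, against 1.43% of all genes. Expressed as ratios, mouse 30 to the highest of the others was between 2.07 and 16.9 for the 8 members in ependymal cells and between 0.240 and 1.84 in endothelial cells. With 1 such mouse the difference between these types could not be tested over mice.

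**Figure D2:**
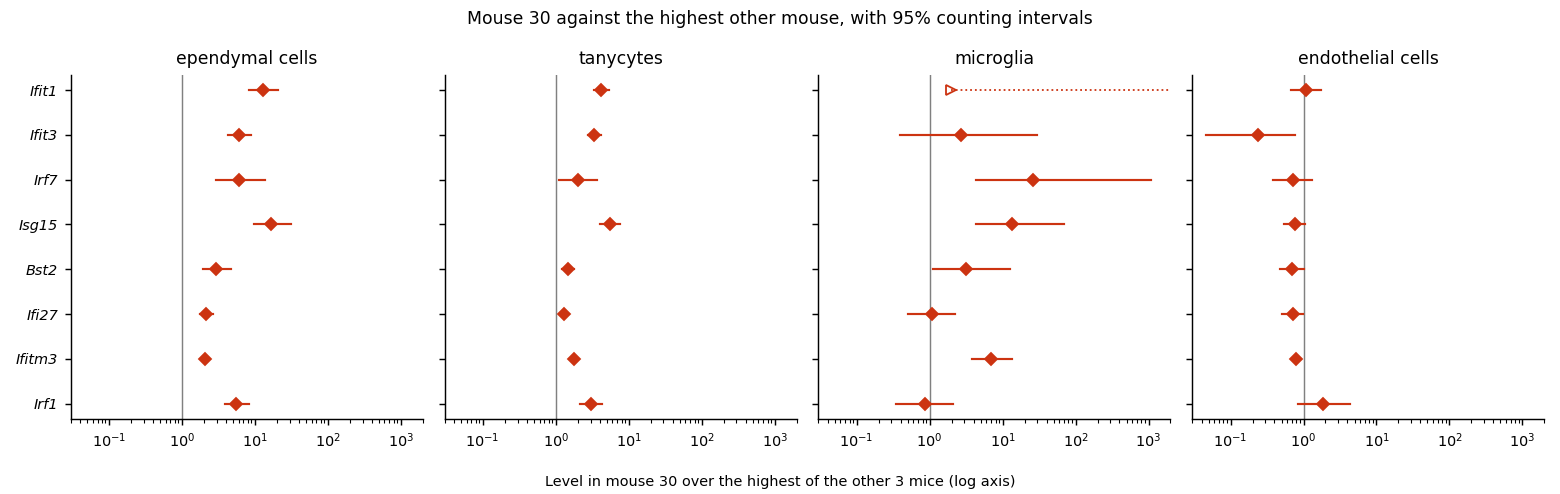
Level in mouse 30 divided by the highest level of the other 3 mice, for each gene in 4 cell types, on a log axis with 95% exact intervals that cover counting error only. The open triangle marks the lower bound where the other mice had 0 UMIs (Ifit1 in microglia). All points in ependymal cells and tanycytes lie right of 1, and 6 of the 8 in endothelial cells lie left of it.

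A wider list held 76 other genes of the pathway, of which 67 had counts here. In ependymal cells 30 of its 34 eligible genes were at least 2-fold above in mouse 30, among them the transcription factor gene Irf9. Cxcl10, for which mouse 30 was already known to stand apart, is among them. Without Cxcl10 the count was 29 of 33 in ependymal cells, 13 of 20 in tanycytes, 8 of 46 in microglia, 1 of 10 in astrocytes and 0 in oligodendrocytes (of 4), precursor cells (of 6) and committed precursors (of 5). In endothelial cells it was 1 of 26, Gbp2. The same limit of 50 CPM in any mouse applied, so these counts are descriptions too. A list of 14 NF-kB target genes, which respond to inflammatory signals, was looked at too. It was not screened for genes that also respond to interferon, so it does not separate the pathways. It was above in mouse 30 for 13 of 14 genes in ependymal cells, 5 of 6 in tanycytes, 7 of 11 in endothelial cells and 3 of 13 in microglia. The shares of all genes in these types were 3.42%, 1.15%, 1.43% and 1.57%. It was above for 2 of 4 each in astrocytes (background 0.506%), oligodendrocytes (0.797%) and precursor cells (0.774%) and for 0 of 2 in committed precursors (0.659%). With 50 CPM required in another mouse, few genes of either list remained eligible. Over the 8 types the wider list was then above in 10 of 73 pairs, or in 9 of 72 without Cxcl10, against 0.381% of all pairs. Without Cxcl10 it was above for 5 of 7 genes in ependymal cells (0.864% of all genes), 4 of 22 in microglia (1.19%), 0 of 5 in tanycytes (0.188%), 0 of 23 in endothelial cells (0.185%) and 0 in the other 4 types. The NF-kB list was above in 8 of 28 pairs, among them 1 of 2 in ependymal cells, 3 of 12 in microglia, 1 of 2 in tanycytes and 2 of 5 in endothelial cells. Cxcl10, which both pathways induce, was at 1.71, 0, 121 and 1.64 CPM in endothelial cells of mice 3, 4, 30 and 34 and at 0, 0, 3731 and 38.5 CPM in ependymal cells. Mouse 30 was the highest in endothelial cells for 2 of the 8 members. They were Irf1, at 79.7 CPM against 39.2 to 43.3 CPM, and Ifit1, at 110 CPM against 52.0 to 101 CPM, and the 95% counting intervals of their ratios to the next mouse, 1.84 and 1.09, included 1.

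Markers of other cells were looked at beside these values. The 6 microglial markers reached 127 CPM in ependymal cells of mouse 30, 58.9 to 76.0 CPM in those of mice 3, 4 and 34, and 9764 to 11668 CPM in microglia. Over all cells, mouse 30 had 436 CPM of microglial markers and mice 3, 4 and 34 had 264 to 267.5 CPM, with 133 against 30.3 to 74.9 CPM for the 5 leptomeningeal markers and 27.6 against 5.98 to 10.6 CPM for the 4 perivascular macrophage markers. The leptomeningeal markers also stood higher in endothelial cells of mouse 30, at 216 against 57.2 to 80.5 CPM. Over all cells, 3 of the 5 lymphocyte markers and 1 of the 2 neutrophil markers listed were at 0 UMIs in mouse 30, and each of these lists summed to 2.12 CPM there and to at most 0.565 CPM in the other mice. The 4 markers of perivascular macrophages summed to 23.2 CPM in ependymal cells of mouse 30, with 3 of the 4 at 0, and to 1.203 to 3.23 CPM in the others. The part of such cells in the levels was not tested. The median mitochondrial share was 13.5% in mouse 30 and 12.8% to 13.5% in the others, and the median depth of 909 UMIs per cell was the lowest of the 4 mice.

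Differences between cell types were then tested with edgeR's quasi-likelihood test on the 32 sums, with the mouse as a block and Benjamini-Hochberg adjustment over 10166 genes. Calls required an adjusted p under 0.05 together with a log2 fold change of more than 1 in either direction. Since the cell labels probably derive from these counts, the calls describe the labelled types.

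All log2 fold changes below are of the first type named over the second. Endothelial cells, which form the wall of brain vessels, were higher than astrocytes for 6 of the 8 members, where 15.7% of all genes were called higher and 16.8% lower. The log2 fold change was 5.05 for Isg15 (SE 0.42, adjusted p = 4.53e-17), 4.66 for Ifitm3 (SE 0.20), 4.39 for Irf7 (SE 0.45), 2.85 for Bst2 (SE 0.23), 2.48 for Ifit1 (SE 0.38) and 1.79 for Irf1 (SE 0.37, adjusted p = 3.68e-05), each in 4 of 4 mice. Ifit3 at 0.46 and Ifi27 at -0.07 were not called. The median of the 8 was 2.67, against -0.03 for all genes tested. Without mouse 30, 6 were called as well, with Isg15 at 5.64, and the wider list gave 34 higher and 1 lower again, where 15.5% of all genes were higher and 16.9% lower. Of 54 genes of the wider list that were tested, with a median of 1.55, 34 were higher and 1, the RNA sensor Tlr3, was lower. They included 3 of the 5 receptors (Ifnar1, Ifnar2 and Il10rb), Irf9, and 17 of 25 effectors. The largest were Ifitm1, a relative of Ifitm3, at 5.36, Uba7, the enzyme that activates Isg15, at 4.19, and the GTPase Iigp1 at 4.03. Ifnar1 itself was at 118 ± 18.6 CPM (SD, n = 4) in endothelial cells and at 33.3 ± 5.73 CPM in astrocytes.

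Microglia were higher than astrocytes for 5 members, against 11.3% of all genes higher and 17.8% lower. They were Irf7 at 3.89 (SE 0.68), Isg15 at 3.62 (SE 0.76), Irf1 at 2.49 (SE 0.50), Bst2 at 2.28 (SE 0.40) and Ifitm3 at 2.16 (SE 0.39), with adjusted p from 2.33e-06 to 8.44e-05. The call of Irf7 was borne by 2 of 4 mice, and without mouse 30 it was lost (log2 fold change 0.81, adjusted p = 0.768), as was that of Ifitm3 at 0.99. Isg15 (2.34, adjusted p = 0.0246), Bst2 and Irf1 were called without mouse 30, and Ifi27 was then called lower at -1.05, where 10.8% of all genes were higher and 14.5% lower. The median of the 8 was 2.22 with all mice, against -0.34 for all genes. In the wider list, at a median of 1.27, 25 genes were higher and 1 lower, and 19 were higher without mouse 30. The largest were Tmem173, which encodes the DNA-sensing adaptor STING, at 6.73, Irf8, a factor of the macrophage lineage, at 6.55, and the antiviral gene Rsad2 at 4.25, which without mouse 30 was at 0.91 and not called (adjusted p = 0.658). Of the 5 receptors, 4 were higher in microglia (Ifnar2, Ifngr1, Ifngr2 and Il10rb), with Ifngr1 at 217 ± 24.9 CPM (SD, n = 4) against 46.1 ± 12.3 CPM in astrocytes.

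Between endothelial cells and microglia the outcome turned on mouse 30. With all mice, 2 members were higher in endothelial cells, Ifitm3 at 2.50 (SE 0.27, adjusted p = 3.54e-12) and Isg15 at 1.43 (SE 0.48, adjusted p = 0.0186), where 13.2% of all genes were higher and 7.44% lower. Without mouse 30, 7 members were called, 6 higher and 1 lower, where 11.5% of all genes were higher and 7.25% lower. Isg15 was then at 3.30, Ifitm3 at 4.10, Irf7 at 4.198, Ifit3 at 1.96 and Bst2 at 1.36, Ifit1 was called higher against 0 UMIs in microglia, and Irf1 was lower at -1.11. The call of Isg15 was lost without mouse 3 (0.92), without mouse 34 (1.07) and without the mouse as a block (0.95, adjusted p = 0.496), and in each of these 1 member was called. The median of the 8 was 1.05 with all mice, against 0.25 for all genes. In the wider list 7 genes were higher and 7 lower with all mice, and 12 and 7 without mouse 30. Ifi44 had 49 UMIs in endothelial cells and 0 in microglia, Irf8 was lower in endothelial cells at -5.79, and Ifitm1 was higher at 4.81.

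Tanycytes were higher than astrocytes for 7 members, where 10.6% of all genes were higher and 10.3% lower. Isg15 was at 2.92 (SE 0.47), Bst2 at 2.73 (SE 0.19), Ifitm3 at 2.62 (SE 0.21), Ifit1 at 2.16 (SE 0.32), Ifit3 at 1.99 (SE 0.24), Irf7 at 1.90 (SE 0.52) and Irf1 at 1.11 (SE 0.32, adjusted p = 0.00234). Ifi27, at 0.89 with an adjusted p of 5.37e-07, stayed under the limit on the fold change. Irf1 was higher in 3 of 4 mice and was not called without mouse 30 (0.72) or without mouse 34 (0.93), and Irf7 was not called without mouse 34 (1.41, adjusted p = 0.0691). Irf1 was not called either without the block (adjusted p = 0.0571) or by DESeq2 (adjusted p = 0.165). The other 5 were called with each mouse left out in turn. The median of the 8 was 2.08, against 0.00234 for all genes, and the wider list, at a median of 0.48, had 17 genes higher and 2 lower (13 and 3 without mouse 30, where 10.4% of all genes were higher and 11% lower). Cxcl10 at 2.95, Ifi27l2a, a relative of Ifi27, at 2.70 and Usp18, which removes Isg15 from proteins, at 2.47 were the largest, and Cxcl10 was not called by DESeq2 (2.25, adjusted p = 0.0543). Of its 5 receptors, Ifnar2 was called lower in tanycytes, and the other 4 were not called.

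Ependymal cells and tanycytes, neighbours along the ventricle, differed in both directions. With all mice, Ifitm3 was higher in ependymal cells at 1.53 (SE 0.16, adjusted p = 5.85e-13) and Irf1 at 1.09 (SE 0.26, adjusted p = 3.43e-04), against 12.6% of all genes. Bst2 was lower at -1.63 (SE 0.20) and Ifi27 at -1.02 (SE 0.17), against 6.48% of all genes. Isg15 at 0.10, Ifit1 at -0.11, Ifit3 at -0.57 and Irf7 at 0.65 were not called. Without mouse 30, Ifit1 was lower at -1.65 (adjusted p = 1.92e-06), Isg15 at -1.67 (adjusted p = 1.18e-04) and Ifit3 at -1.42 (adjusted p = 7.06e-08), Irf1 was no longer called at 0.51, and Ifitm3, Bst2 and Ifi27 were called as before. The call of Ifi27 was lost without mouse 3 (-0.86) or mouse 4 (-0.87). It was also lost with library totals alone (-0.97) and with at least 10 UMIs required in at least 4 sums (-0.995). That of Irf1 was lost without the block (adjusted p = 0.0650), by DESeq2 (adjusted p = 0.154) and in the fit of the 2 types alone (0.93). The median of the 8 was -0.00544, against -0.00171 for all genes. The wider list turned with it: 10 genes were higher and 1 lower in ependymal cells with all mice, and 4 higher and 10 lower without mouse 30, where 12.4% of all genes were higher and 6.3% lower. Iigp1 at 2.55, Ifitm1 at 2.40 and the GTPase Gbp2 at 2.22 were the largest with all mice, and Iigp1 was not called without mouse 30 (0.85, adjusted p = 0.512).

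Oligodendrocytes were lower than astrocytes for 3 members, where 17.5% of all genes were lower and 11.7% higher. Ifit1 was at -2.31 (SE 0.66), Ifit3 at -2.30 (SE 0.47) and Irf1 at -2.28 (SE 0.57), with adjusted p from 2.66e-05 to 0.00217, and each was lower in 4 of 4 mice. Without mouse 30, 4 were called, with Bst2 at -1.02 added, where 18.3% of all genes were lower and 11.7% higher, and without the block Ifit3 alone was called. The median of the 8 was -0.87, against -0.03 for all genes. The wider list, at a median of -1.30, had 25 genes lower and 2 higher (27 and 2 without mouse 30), with Tlr3 at -3.66, the secreted glycoprotein gene Lgals3bp at -3.02 and the oligoadenylate synthetase-like gene Oasl2 at -2.84 as the largest. Oasl2 was not called without the block (adjusted p = 0.0679). Oligodendrocyte precursor cells were higher than oligodendrocytes for Irf1 at 2.73 (SE 0.66, adjusted p = 4.05e-04), and 14% of all genes were higher and 11% lower. Without mouse 30 it was at 3.61 and again the 1 member called, where 14.4% of all genes were higher and 10.7% lower. The medians were 0.44 for the members, 0.28 for the wider list and -0.03 for all genes. In the wider list 4 genes were higher and 1 lower, with and without mouse 30. Xaf1, a pro-apoptotic effector, was lower at -4.08, Socs3, an inhibitor of JAK signalling, was higher at 2.62 and the ubiquitin ligase gene Trim25 was higher at 1.61.

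Of the NF-kB target genes 13 were tested with all mice and 12 without mouse 30, an alternative added after the data were seen. Against astrocytes, 9 were higher and 1 lower in endothelial cells, where 15.7% of all genes were higher and 16.8% lower, and without mouse 30 the counts were 6 and 1. In microglia 11 were higher and 1 lower than in astrocytes (background 11.3% and 17.8%), and 10 and 2 without mouse 30. Against microglia, 7 were lower in endothelial cells and 0 higher (background 7.44% lower and 13.2% higher), and 8 and 0 without mouse 30. Between ependymal cells and tanycytes the count rested on mouse 30. There 9 were higher in ependymal cells and 0 lower (background 12.6% and 6.48%), and without mouse 30 only 1 was higher and 0 lower (12.4% and 6.3%). The shares of all genes without mouse 30 in the other comparisons are those given with the members. In each of the other 3 comparisons at most 1 was called in a direction with all mice and at most 3 without mouse 30.

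**Figure D3:**
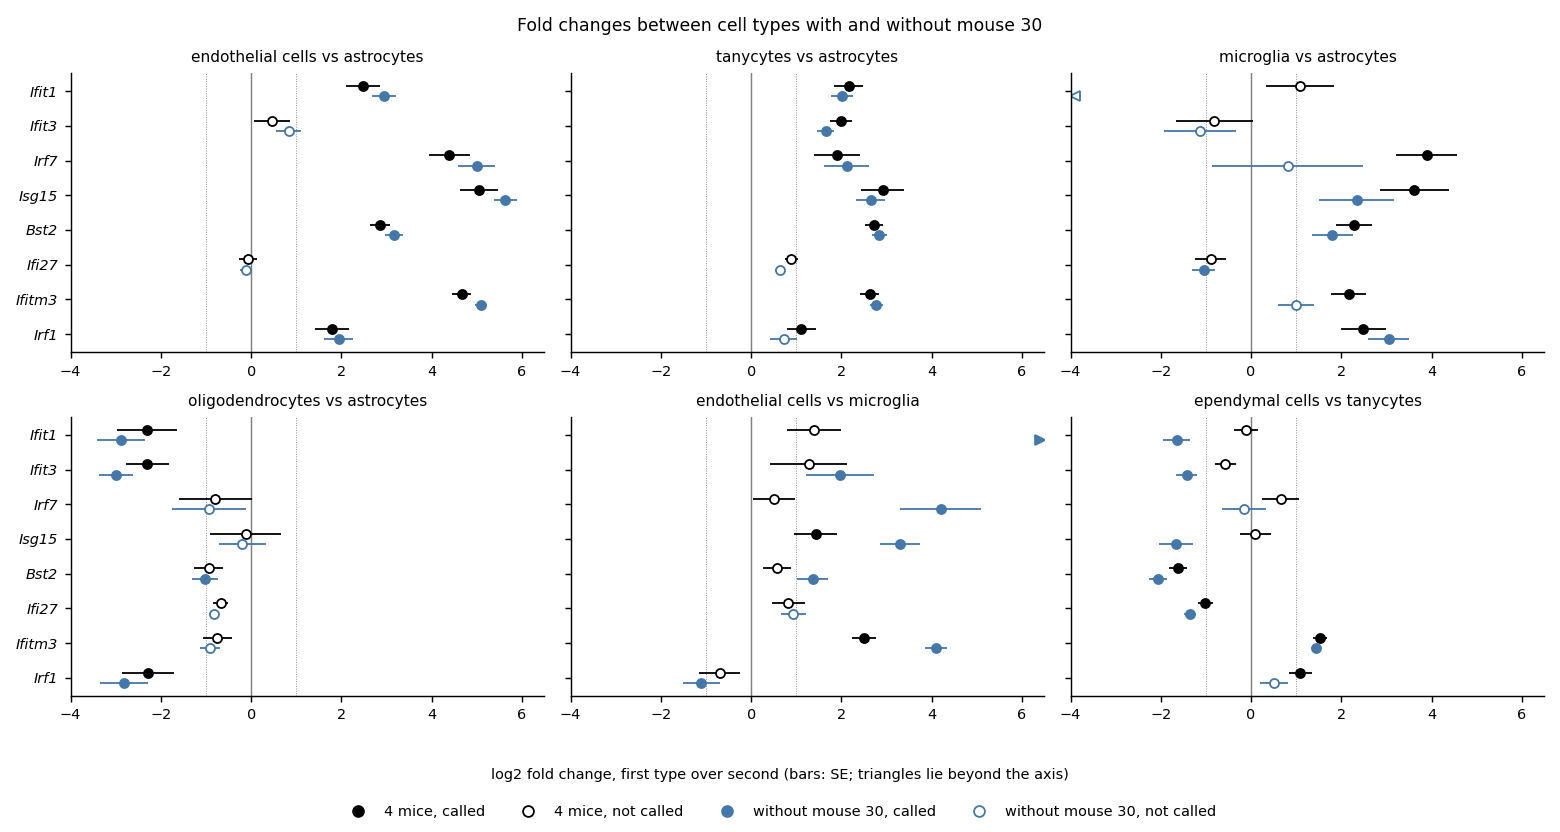
Log2 fold change with its SE for each gene in 6 comparisons of cell types, for 4 mice (black) and without mouse 30 (blue), with filled points where a gene was called. For Isg15 the fits lie at 5.05 and 5.64 for endothelial cells against astrocytes, and lie farther apart, at 3.62 and 2.34, for microglia against astrocytes, at 1.43 and 3.30 for endothelial cells against microglia and at 0.10 and -1.67 for ependymal cells against tanycytes.

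The share of cells in which UMIs of the members were found was computed after thinning each cell to 500 UMIs, which left out 1 cell of the 8 types. Free RNA in droplets can give UMIs in cells that do not express a gene, so oligodendrocytes, a type with low levels of most members, are given as the background. In them the share with UMIs of at least 2 different members was 0%, 0.347%, 0.634% and 0.0641% in mice 3, 4, 30 and 34, at median depths of 1304.5, 948, 894 and 1089 UMIs before thinning. The same share of ependymal cells was 3.86%, 0.816%, 35.5% and 5.38%, at median depths of 1152, 1006, 974.5 and 1266 UMIs, and the exact 95% interval of mouse 30, 30.7% to 40.6%, lay above those of the rest. In mouse 4 the intervals of ependymal cells and oligodendrocytes overlapped. In tanycytes the share was 5.74%, 4.04%, 22.2% and 8.64%. Mouse 30 was again the highest. In microglia it was 3.91%, 0%, 25.3% and 0.813%, the 0% being 0 of 34 cells. Astrocytes had 0.721%, 0.556%, 3.14% and 0.550%, with an interval of 1.81% to 5.05% in mouse 30. Endothelial cells had 20.1%, 9.77%, 13.3% and 21.2%, and there mouse 30 lay between mice 4 and 3. Ifi27 counts among the members here, at means of 132 CPM in oligodendrocytes, 223 CPM in ependymal cells and 441 CPM in tanycytes. Shares without Ifi27 were not computed.

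These shares depend on the depth that the cells are thinned to. At 800 UMIs, which left out 35, 84, 128 and 32 ependymal cells of mice 3, 4, 30 and 34, the share in that type was 6.42%, 3.11%, 59.5% and 14.8%. In tanycytes it was 12.8%, 7.03%, 39.6% and 14.5%, and in microglia 2.94%, 4.35%, 29.5% and 2.22%. Mouse 30 was highest in these 3 types at both depths. Astrocytes had 1.41%, 2.25%, 3.33% and 2.19%, where the interval of mouse 30, 1.61% to 6.04%, overlapped those of the others. In endothelial cells it was 34.1%, 17.1%, 32.1% and 33.8%, and in oligodendrocytes 0.247%, 0.174%, 1.65% and 0.214%. Without thinning, the share in ependymal cells was 14.1%, 4.08%, 65.3% and 32.7%.

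In ependymal cells the UMIs of mouse 30 were spread over many cells. Its 176 Ifit1 UMIs in ependymal cells came from 115 of 380 cells, with at most 5 UMIs in a cell and 21.6% of the UMIs in the 10 top cells. Its 135 Isg15 UMIs came from 84 cells. In microglia, with fewer UMIs and cells, the 10 top cells of mouse 30 held 76.5% of 34 Isg15 UMIs and 72.7% of 22 Irf7 UMIs, and in its 44 vascular leptomeningeal cells 79.6% of 93 Isg15 UMIs and 82.2% of 45 Ifit1 UMIs. After thinning, Isg15 was found in 12.4% of ependymal cells of mouse 30, in 0.227%, 0% and 1.08% of those of mice 3, 4 and 34, and in 1.06% of oligodendrocytes of mouse 30, against 0.180%, 0.231% and 0.128% of those of mice 3, 4 and 34. Cxcl10 was found in every type of mouse 30 as well, at 74.1 CPM in oligodendrocytes, 123 CPM in precursor cells and 33.5 CPM in committed precursors beside the 3731 CPM in ependymal cells. The part of free RNA in the low levels of mouse 30 in these types was not tested.

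**Figure D4:**
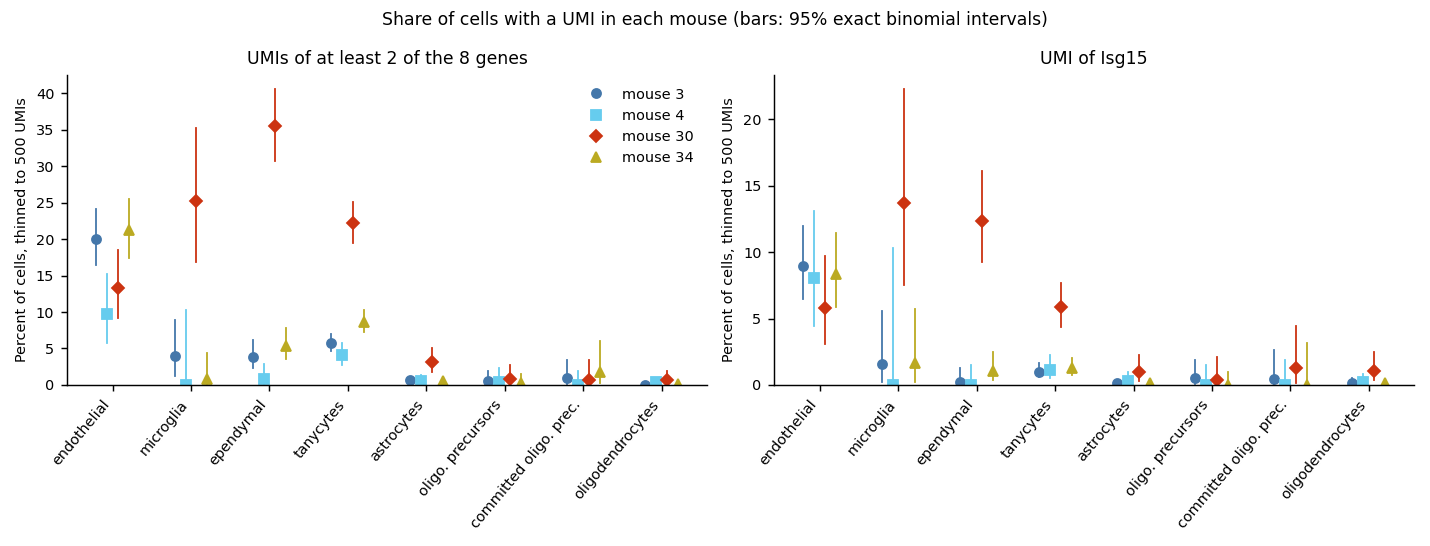
Percent of cells with UMIs of at least 2 of the 8 genes (left) or of Isg15 (right) in each mouse and type after thinning to 500 UMIs per cell, with exact 95% binomial intervals. On the left, mouse 30 lies above the other mice in microglia, ependymal cells and tanycytes and, at a low share of 3.14%, in astrocytes, and within their range in endothelial cells, where the others reach 21.2%.

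Genes outside the list whose log2 CPM followed each member most closely over the 32 sums were named by Pearson's r. For Isg15 they were Usp18 (0.94), AW112010 (0.89) and H2-T23 (0.89), and for Ifit1 they were Gbp3 (0.91), Ifit3b (0.90) and Rtp4 (0.88). Ifit3 was closest to Ifit3b (0.89), with which it shares sequence, Igtp (0.83) and Oasl2 (0.79). Irf7 was closest to Iigp1 (0.89), AW112010 (0.89) and Rsad2 (0.88). For Irf1 they were Gbp7 (0.90), Tap2 (0.82) and Parp14 (0.82), and for Bst2 they were Ifih1 (0.89), Cyba (0.88) and Psmb8 (0.87). Ifitm3 was closest to Ahnak (0.93), Vim (0.91) and S100a11 (0.91). Ifi27 was closest to Prdx2 (0.76), Gdf11 (0.74) and Erh (0.71), at lower r than any other member.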

How the data were processed

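Single-cell RNA sequencing was performed on the hypothalamus of 4 mice of 1 group. The authors deposited raw UMI counts per gene and cell, a mitochondrial percent, a doublet score given as a fraction and a cell type label. The submitters' processing notes name Cell Ranger 1.2, Seurat and the builds GRCm38, mm10 and GRCh38, and how the cell types were labelled is not given in the sources used here. Cells of 12 libraries outside the labelled samples (50172 cells) were not used. UMI sums of the deposited counts equalled the listed totals in all 20151 cells.

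Counts were summed per mouse and type (at least 20 cells) and tested in 1 joint fit with edgeR 4.0.16 in R 4.3.3, with TMM normalization, filterByExpr and mouse as a block, since the types came from the same animals. Standard errors were derived from the F statistic. The fit assumes the same shift of a mouse in every type, which the ratios of mouse 30 in ependymal and endothelial cells do not meet, so fits of 2 types alone and fits without mouse 30 were made as well. The scripts were tested on simulated data. Alternatives were DESeq2 1.42.0, other filters, scaling and fits, other limits, cells without the upper 5% of doublet scores, and each mouse left out. Doublets were not removed in the main analysis. Intervals and the limit of 3 counts for a 0 cover counting error only, at 95%, Poisson for levels, binomial (Clopper-Pearson) for shares and conditional for ratios of 2 mice. Sums held 44756 to 2319177 UMIs in the types tested. Labels give 1 mouse per sample. With the mouse as a block, p-values rest on how differences between types vary over mice of 1 group. The dispersion of a gene was shared over types.

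Genes named were the 8 members, the 3 called genes of largest change of the wider list in each comparison, Cxcl10, and for each member the 3 genes of highest r (log2 CPM, prior count 2). Other genes of the lists were named after their values were seen. The members and lists were chosen with earlier results of these data known.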

Additional observations from a re-analysis of the deposited data

Results flagged for a closer look

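Levels were screened for a mouse far from the other 3, by the gap to its neighbour over the range of the 4 mice, for the members and Cxcl10 in 8 types. Of 64 groups of the members, 21 were set apart, and mouse 30 was the high mouse in 20 of them. All 8 groups of Cxcl10 were set apart as well, but mouse 30 was already known to stand apart for that gene. The limit was the critical value of Dixon's test for 4 mice. It sets apart about 5% of single groups by chance when the values are normally distributed. Levels from few UMIs, or from 0 UMIs in all mice but 1, are not so distributed, and the groups share the same 4 mice. The 5% is therefore no chance rate for these groups and no measure for their number. For Ifit1 the types were tanycytes (229.6 CPM), ependymal cells (371 CPM), oligodendrocytes (14.4 CPM) and microglia (182.5 CPM). For Ifit3 its tanycytes (277 CPM) and its ependymal cells (297 CPM) stood apart. Irf7 was at 73.8 CPM in its ependymal cells and 223 CPM in its microglia. For Isg15 the types were astrocytes (20.01 CPM), tanycytes (182 CPM), ependymal cells (285 CPM), oligodendrocytes (18.5 CPM) and microglia (345 CPM). Bst2 was set apart in ependymal cells, at 122 CPM. Ifitm3 was set apart in astrocytes (126 CPM), oligodendrocytes (88.5 CPM) and microglia (760.4 CPM). Irf1 was set apart in astrocytes (24.0 CPM), ependymal cells (264 CPM) and endothelial cells (79.7 CPM), the last from 21 UMIs and the 1 member set apart in that type. Cxcl10 was set apart in all 8 types, at 104 CPM in astrocytes, 855 CPM for tanycytes, 3731 CPM for ependymal cells, 74.1 CPM in oligodendrocytes, 123 CPM in oligodendrocyte precursor cells, 33.5 CPM in committed oligodendrocyte precursors, 121 CPM in endothelial cells and 1237 CPM in microglia. The remaining group was Irf7 in oligodendrocyte precursor cells, where mouse 4 was at 0 CPM and the others, with 1 or 2 UMIs each, at 4.25 to 4.59 CPM.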

How the results depend on the processing

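Of 713 fold changes of a member under an alternative setting, 656 kept their direction and their side of the limits, 14 reversed, 21 lost a call and 22 gained one. Of 243 of the named genes of the wider list, 6 lost a call (Iigp1 without mouse 30 and by DESeq2 in ependymal cells against tanycytes, Rsad2 without mouse 30, Ifi44 and Oasl2 without the block, and Cxcl10 by DESeq2 in tanycytes against astrocytes). The cause was not tested where none is given. The mouse as a block was part of the design, since the types share animals. Without it, 1 member was called for endothelial cells against microglia and 1 for oligodendrocytes against astrocytes, and Ifit1 was at 0.13 in ependymal cells against tanycytes. Fitting only the 2 types compared left 3 members above the filter for microglia against astrocytes, of which 2 were called, and 2 members for oligodendrocyte precursor cells against oligodendrocytes, of which 0 were called since Irf1 was not among them. That fit called 1 for endothelial cells against microglia, and Isg15 was at -0.21 in ependymal cells against tanycytes. By DESeq2, Isg15 was at -0.75 there and Ifit1 at -0.0519 in microglia against astrocytes. Without TMM the median of all genes for precursor cells against oligodendrocytes was 0.47, and 2 members were called, with Isg15 at 0.13 and Ifitm3 at 0.35. By adjusted p alone, 6 members were called for oligodendrocytes against astrocytes, all lower, as were 28.3% of all genes, and 2 for precursor cells against oligodendrocytes, both higher, as were 20.1% of all genes. With each mouse left out, the members called for endothelial cells against microglia ran from 1 to 7, with Irf7 from -0.0138 to 4.198 and Bst2 from -0.0328 to 1.36. In ependymal cells against tanycytes Ifit1 ran from -1.65 to 0.14, Irf7 from -0.15 to 0.97 and Isg15 from -1.67 to 0.20. In precursor cells against oligodendrocytes Ifit3 ran from -0.22 to 0.66 and Ifitm3 from -0.45 to 0.27. Ifit1 in microglia against astrocytes ran from -6.22, where microglia had 0 UMIs, to 1.34. With 50 CPM required in another mouse, mouse 30 stood above the others in 6 of 21 pairs of a member and a type rather than in 19 of 36, since 13 reached it in mouse 30 alone. It stood above in 15 pairs at a 3-fold limit and in 21 at a 1.5-fold limit. With totals scaled by TMM, chosen after seeing the data like the former, it did in 19 of 37, and mice 3, 4 and 34 did in 0 under all these limits. Under another thinning 53 mean shares of cells moved by more than 1 SD and 43 did not. Microglia of mouse 4 had 44756 UMIs, so that 0 UMIs allow 67.0 CPM.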

Other observations

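Of the 7 interferon ligand genes on the wider list, 1, Ifng, which encodes interferon gamma, had a row of counts, and it was looked at after its values were seen. It had 101 UMIs in all cells, of which 92 were in tanycytes and ependymal cells. Its level in tanycytes was 8.36 CPM (mouse 3), 11.3 CPM (mouse 4), 3.16 CPM (mouse 30) and 15.7 CPM (mouse 34). For ependymal cells the values were 16.2, 14.4, 12.7 and 15.6 CPM in this order. These rest on 3 to 28 UMIs per mouse in tanycytes and on 5 to 13 in ependymal cells, so no order of the mice is read from them. Microglia had 0 Ifng UMIs in all 4 mice and endothelial cells had 1 in all.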
